A study of Mus musculus with 6 samples.

Results

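The interferon response and antigen presentation genes of the mouse liver were followed across a soy diet. The set was given as a list of 41 genes, and a gene was measured where an array probe carried a RefSeq accession of it. Probes were found for 39 of the 41 genes, out of 22911 genes on the array, whereas Mx1 and Mx2 were not analysed here. Each gene is given by its probe with the highest mean signal, called its brightest probe. Liver RNA came from 6 male mice that were 12 weeks old when the diets began, and 1 single-colour Agilent array was hybridized for each mouse. The 3 control mice received regular chow only (100% of the food), and the 3 soy-fed mice received chow that held 75% regular food and 25% soy bean, for 4 weeks. The strain is not given in the sources used here. Tissue was cut from the right hepatic lobe and was whole liver, so hepatocytes, macrophages, lymphocytes and vessel cells contributed to each sample together. The labels give no genetic change for either group. Of the 3 slides, slide 1 carried control 1, control 2 and soy 1, slide 2 carried soy 2 alone, and slide 3 carried control 3 with soy 3.

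Type I interferons signal through a receptor on most cell types, where the kinases JAK1 and TYK2 phosphorylate STAT proteins, STAT2 among them. With IRF9 these form a complex, ISGF3, that binds a short DNA element, the interferon-stimulated response element (ISRE), in front of antiviral genes, and IRF7 amplifies the response. Interferon gamma acts on the gamma-activated site (GAS) and raises the genes of antigen presentation, in which MHC class I molecules show peptides on nearly every cell and MHC class II molecules do so on macrophages, dendritic cells and B cells. In the liver, hepatocytes, Kupffer cells (the resident macrophages) and sinusoidal endothelial cells all respond to interferon.

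No interferon response or antigen presentation gene passed the test for a difference between soy-fed and control livers. Passing required an adjusted p under 0.05 (limma, Benjamini-Hochberg over 56605 probes) with a fold change above 1.5 or under 0.66. Of all probes 198 did so (0.35%), and of the 15123 genes whose signal was well above background on every array of 1 group or both, 105 passed by their brightest probe (0.694%). All 39 measured genes were in that class of well-measured genes, and the smallest adjusted p among them was 0.111, for Usp18. Values are log2 signals, and a change is soy minus control on that scale. A p that missed the threshold does not show that a level was the same in both diets, and 3 arrays per group limit the precision.

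Without a threshold, 28 of the 39 genes were lower in the soy-fed livers (71.8%) and 11 were higher, with a median change of -0.24, while the median over all well-measured genes was -0.019 and 53.5% of them were lower. The control and soy arrays did not overlap for 8 genes that were lower in soy, namely Irf7, Irf9, Ifih1, Usp18, Ifit1, Ifit3, Ifi44 and Cd74, or 20.5% of the 39. Of all well-measured genes 13.3% were of this kind. They did not overlap for 3 genes that were higher in soy, Ciita, H2-K1 and H2-D1 (7.69%), beside 12.2% of all. An unadjusted p under 0.05 was found for 8 genes lower in soy (20.5%, against 9.89% of all) and for 2 higher (5.13%, against 9.89%). With the slide as a block these counts were 15 lower and 1 higher, against 7.82% and 8.55% of all. In that fit soy 2, alone on its slide, takes no part in the change. By role, the RNA sensors, 12 of 14 antiviral effectors and 3 of 4 class II genes were on the lower side, and H2-K1, H2-D1 and Irgm1 were on the higher side. Ifit1, Ifit3, Cd74 and Ciita are named for this count, after their values were seen, and the others by a rule of size and brightness. In whole liver, fewer cells of a type and less RNA per cell cannot be told apart.

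**Figure D1:**
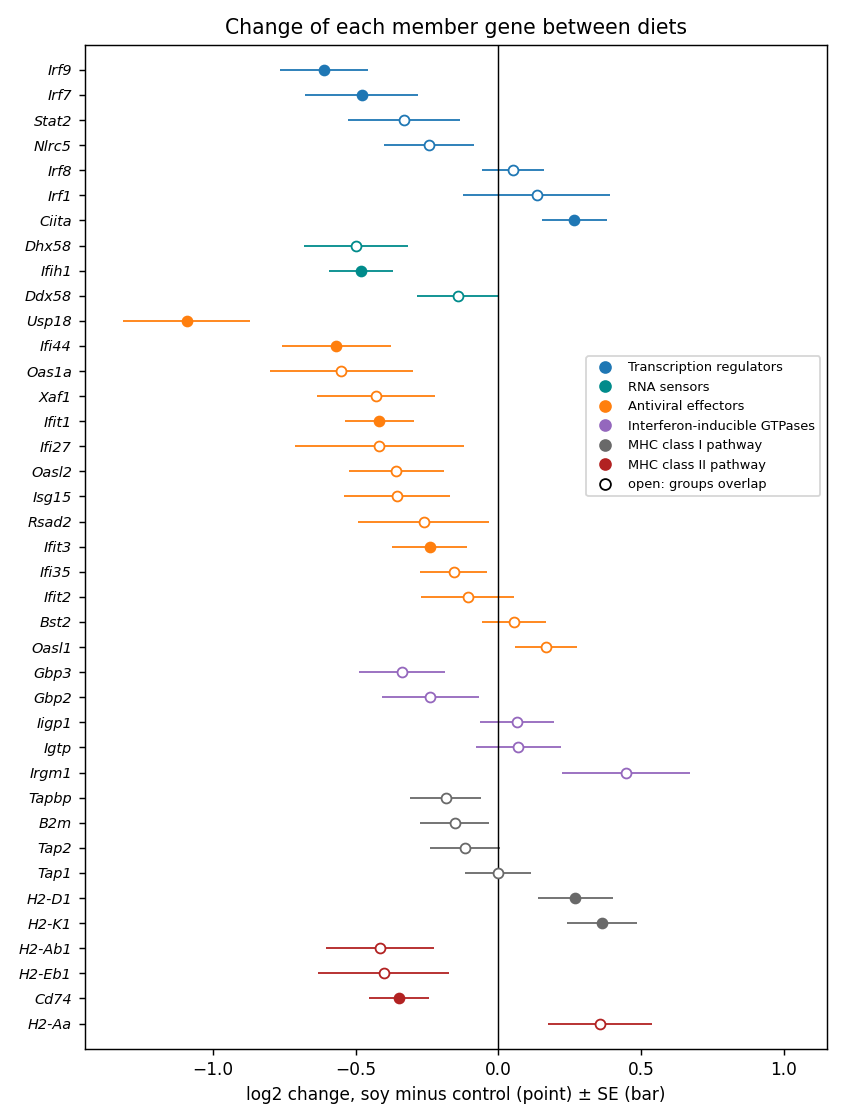
Log2 change of each of the 39 genes between diets (soy minus control, points) with its standard error (bars), coloured by role, filled where the 3 soy arrays and the 3 control arrays do not overlap. Usp18 lies farthest to the left at -1.09, and Irgm1 farthest to the right at 0.45.

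The arrays differed in how they carried this pattern. Of the 39 genes, 14 were highest on control 3 and 10 on control 1, whereas none was highest on soy 1, where 15 were lowest. After centring each gene on its own mean, the median over the genes was 0.019, 0.12 and 0.15 on control 1 to 3 and -0.19, -0.072 and 0.072 on soy 1 to 3. Soy 1 thus stood lowest and soy 3 lay above control 1. The genes varied more among mice of 1 diet than most genes did, with a median standard deviation of 0.20 among control mice and 0.20 among soy-fed mice, beside 0.15 and 0.13 over all well-measured genes. The spread among control mice was widest for Irf1 (0.57) and narrowest for Tap1 (0.024). The probes well above background made up 60.7%, 59.6% and 62.8% on the control arrays and 50.7%, 51.9% and 52.8% in soy, and the part of this gap in the values was not tested.

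**Figure D2:**
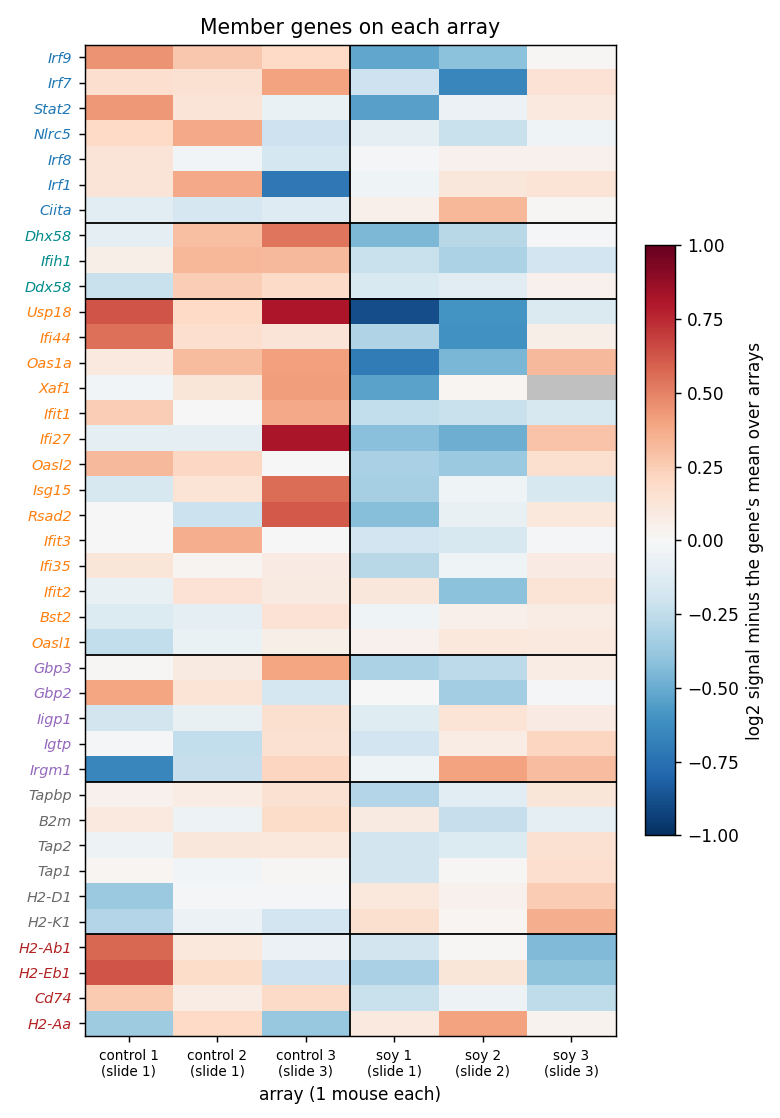
Log2 signal of each gene (rows, grouped and coloured by role) on each array (columns, 1 mouse each) minus the mean of the gene over arrays, with red for above and blue for below its mean and grey for the missing value of Xaf1 on soy 3. Blue dominates soy 1, red dominates control 3, and the rows of H2-D1 and H2-K1 run the other way.

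The ISRE is shared by many targets of type I interferon. A promoter window of 250 bases before to 50 after the start (RefSeq, GRCm38.p6) was found for 30 of the 39. Ciita, Nlrc5, Dhx58, Usp18, Ifi27, Iigp1, Tap2, H2-Ab1 and Cd74 had no window. The ISRE core (GAAA, any 2 bases, then GAAA), searched on both strands, was in the windows of 14 of the 30 genes (46.7%), beside 3.99% of all 27025 genes with a window. Of 12 genes with a match before the start, 8 are shown as examples from 4 role groups, chosen after their values were seen, and written 5′ to 3′ along the gene with the bases of the core in capitals (on the opposite strand it reads TTTC, any 2 bases, then TTTC).
Isg15, chr4:156200855-156200916, minus strand: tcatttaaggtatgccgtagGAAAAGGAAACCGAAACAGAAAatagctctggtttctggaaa
Ifit1, chr19:34640765-34640833, plus strand: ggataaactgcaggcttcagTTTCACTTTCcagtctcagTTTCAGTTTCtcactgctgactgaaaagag
Ifit3, chr19:34583353-34583436, plus strand: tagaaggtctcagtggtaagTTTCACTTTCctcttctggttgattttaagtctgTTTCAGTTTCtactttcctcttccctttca
Oas1a, chr5:120907526-120907565, minus strand: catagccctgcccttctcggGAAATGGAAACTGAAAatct
Stat2, chr10:128270256-128270305, plus strand: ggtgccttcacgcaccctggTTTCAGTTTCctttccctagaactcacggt
Gbp3, chr3:142559979-142560034, plus strand: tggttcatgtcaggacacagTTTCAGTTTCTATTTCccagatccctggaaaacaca
Irgm1, chr11:48871421-48871470, minus strand: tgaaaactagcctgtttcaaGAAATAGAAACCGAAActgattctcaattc
B2m, chr2:122147528-122147577, plus strand: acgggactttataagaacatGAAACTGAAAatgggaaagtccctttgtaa
Isg15 held 3 overlapping matches in 1 run, Ifit1 and Ifit3 held 2 separate matches each, and Oas1a, Gbp3 and Irgm1 held 2 overlapping ones.

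Genes with and without the element were set side by side. The 14 genes with an ISRE had a median change of -0.25, with 11 lower in soy, and the 16 with a window but no match had -0.13, with 10 lower. Among all other well-measured genes with a window, the median was -0.030 for 441 with a match (54.4% lower) and -0.017 for 11529 without (53.2% lower). Irgm1, with 2 matches, was on the higher side. The GAS core (TTC, any 3 bases, then GAA) was in the windows of 7 of the 30 genes (23.3%, beside 9.55% of all genes), and the CCAAT box, to which the trimer NF-Y binds, in 15 (50%, beside 41.1%), among them H2-K1, H2-D1, H2-Aa and H2-Eb1. In Bst2 a GAS match overlapped an ISRE match. A match describes letters in a window and is not shown here to be a bound site.

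Among the 7 transcription regulators the median change was -0.24, with 4 genes lower and 3 higher in soy and none passing. Irf9, the DNA-binding subunit of ISGF3 (RefSeq NM_001159417), measured 12.31, 12.13 and 12.07 on control 1 to 3 and 11.35, 11.46 and 11.87 on soy 1 to 3. Every soy array lay below every control array. The change was -0.61 (SE 0.15, adjusted p = 0.181), with -0.88 within slide 1 and -0.19 within slide 3. A second Irf9 probe, of another accession, also showed no overlap, with 10.97, 10.92 and 10.90 against 10.22, 10.44 and 10.65 and a change of -0.49. Irf7, the amplifier of interferon production (NM_016850), measured 13.01, 13.00 and 13.25 in control livers and 12.64, 12.19 and 12.99 in soy-fed livers. The groups did not overlap, with soy 3 only just below control 2, and the change was -0.48 (SE 0.20, adjusted p = 0.415), or -0.27 without soy 2. A second Irf7 probe overlapped between the diets, with 8.99, 9.22 and 9.67 against 9.01, 8.47 and 9.07 and a change of -0.44. Stat2, the partner of Irf9 in ISGF3 (NM_019963), measured 12.58, 12.27 and 12.08 in controls and 11.60, 12.09 and 12.24 in soy. Only soy 1 stood clear of the controls, and the change was -0.33 (SE 0.20, adjusted p = 0.579), or -0.14 without it, with -0.82 within slide 1 and 0.17 within slide 3. A second Stat2 probe, well above background on all 6 arrays, was at -0.054.

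The other regulators lay on both sides. Ciita, the master regulator of class II transcription, measured 8.53, 8.47 and 8.50 in controls and 8.69, 8.96 and 8.65 in soy, a change of 0.27 (SE 0.11, adjusted p = 0.436). All soy arrays were higher, but its second probe gave -0.17 with overlap, and the mean of both gave 0.049. Nlrc5, the corresponding regulator of class I genes, was at -0.24 and Irf8, a factor of myeloid cells, at 0.050, both with overlapping groups. Irf1, which is induced by interferon gamma, showed a change of 0.13 with controls from 11.87 to 12.96 and soy arrays from 12.53 to 12.71. Control 3 alone was low for Irf1, and the change was -0.30 within slide 1 and 0.85 within slide 3.

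All 3 cytosolic RNA sensors were lower in soy, with a median change of -0.48 and none passing. Ifih1, which encodes MDA5, a sensor of long viral RNA (NM_027835), measured 10.82, 11.10 and 11.09 in control livers and 10.54, 10.45 and 10.57 in soy-fed livers. The soy arrays lay close together and below all controls. The change of -0.48 (SE 0.11, adjusted p = 0.151) was much the same within slide 1 (-0.42) and within slide 3 (-0.52). Dhx58, which encodes LGP2, a regulator of the other sensors (NM_030150), measured 8.66, 9.04 and 9.28 in controls and 8.29, 8.47 and 8.72 in soy. Control 1 fell below soy 3, so the groups overlapped, and the change was -0.50 (SE 0.18, adjusted p = 0.355), with -0.56 within each of the slides 1 and 3. Ddx58, which encodes RIG-I, the sensor of RNA ends (NM_172689), measured 10.73, 11.20 and 11.15 in controls and 10.81, 10.85 and 11.00 in soy, a change of -0.14 (SE 0.14, adjusted p = 0.759). The groups overlapped, and the other probes of Ddx58 were on the higher side, at 0.22, 0.065 and 0.20.

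The antiviral effectors were the largest role group, and 12 of the 14 measured genes were lower in soy, with a median change of -0.36 and none passing. Usp18, the protease that strips ISG15 from proteins and restrains the type I interferon receptor (NM_011909), measured 9.80, 9.37 and 9.98 on control 1 to 3 and 8.28, 8.57 and 9.02 on soy 1 to 3. The means were 9.72 ± 0.31 and 8.63 ± 0.37 (SD, n = 3 each), and the highest soy array lay below the lowest control array. The change was -1.09 (SE 0.22, adjusted p = 0.111), or a fold of 0.469. It was -1.30 within slide 1 and -0.96 within slide 3. No other of the 39 genes had a change past 1 on this scale.

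Ifi44, an interferon-induced gene (NM_133871), measured 8.44, 8.06 and 8.03 in controls and 7.59, 7.29 and 7.95 in soy. The groups did not overlap, with soy 3 just under control 3, and the change was -0.57 (SE 0.19, adjusted p = 0.311), with -0.66 within slide 1 and -0.076 within slide 3. Oas1a, a synthetase of the oligoadenylates that switch on RNase L (NM_145211), measured 10.59, 10.81 and 10.91 in controls and 9.80, 10.04 and 10.82 in soy. Soy 1 and soy 2 were low and soy 3 was at the control level. The change was -0.55 (SE 0.25, adjusted p = 0.462), with -0.91 within slide 1 and -0.085 within slide 3, and -0.34 without soy 1 and -0.85 without soy 3. Ifit1, which binds viral RNA that lacks the host cap modification (NM_008331), measured 8.10, 7.85 and 8.23 in controls and 7.60, 7.63 and 7.69 in soy. The soy arrays were tightly grouped below the controls, and the change was -0.42 (SE 0.12, adjusted p = 0.238). With the processed signal it was -0.78 (adjusted p = 0.112).

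Ifi27 was the brightest of the antiviral group (NM_026790) and measured 14.98, 14.97 and 15.89 in controls and 14.65, 14.58 and 15.36 in soy. Its values were high on both arrays of slide 3 and the groups overlapped, with a change of -0.42 (SE 0.30, adjusted p = 0.647) and -0.40 by a second probe. The change was -0.12 without control 3 and -0.66 without soy 3. Isg15, a ubiquitin-like protein that is joined to other proteins, was at -0.36 (SE 0.18, adjusted p = 0.523) with overlap. Ifit3 was at -0.24 and did not overlap, although soy 3 and control 1 differed by little (9.11 and 9.12). Xaf1 was at -0.43, a value for which the fit dropped soy 3, whose spot was marked as an outlier. With that spot kept its change was 0.46 (SE 0.67, adjusted p = 0.837), and 27 of the 39 genes were lower in soy. The remaining effectors lay between -0.36 for Oasl2 and 0.17 for Oasl1, and Bst2, which tethers budding virus to the cell surface, was at 0.055. After centring, the median of the effectors was -0.0066, 0.13 and 0.26 on control 1 to 3 and -0.31, -0.19 and 0.078 on soy 1 to 3, so that soy 3 lay above control 1.

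**Figure D3:**
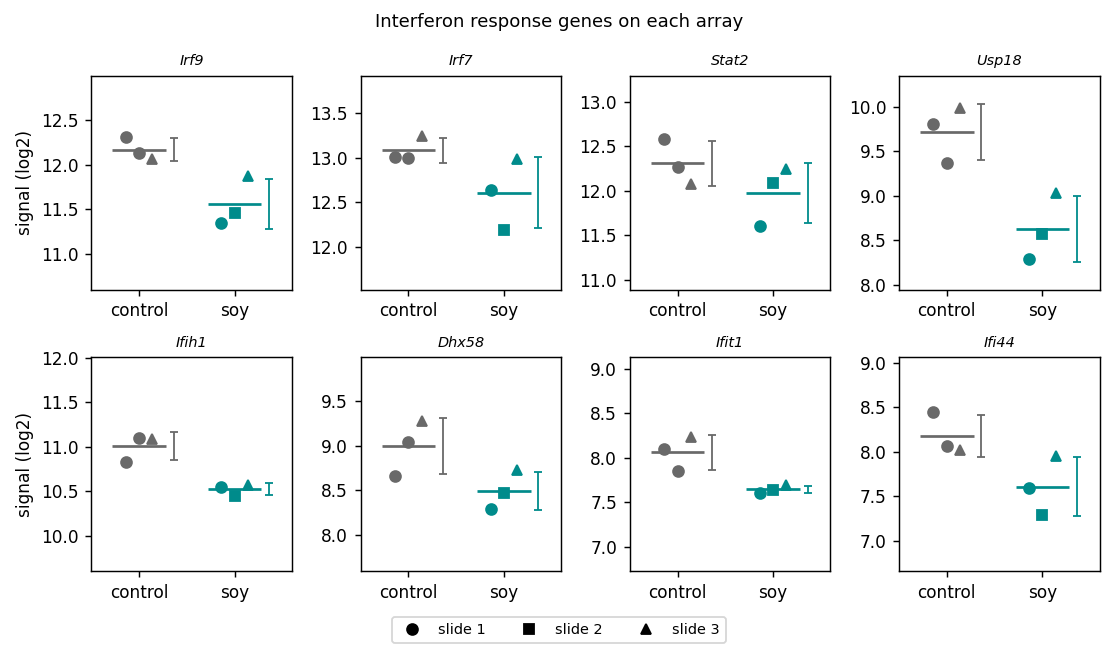
Log2 signal of 8 interferon response genes on each array (points, shaped by slide) with the mean (line) and standard deviation (bar) of the 3 control and the 3 soy mice, on axes of equal span. For Irf9, Irf7, Usp18, Ifih1, Ifit1 and Ifi44 the groups do not overlap, and for Stat2 and Dhx58 they do.

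The 5 interferon-inducible GTPases, which attack the membranes around intracellular parasites and bacteria, had a median change of 0.065 with 2 lower, 3 higher and none passing or free of overlap. Irgm1, which keeps the other immunity-related GTPases in check (NM_008326), measured 11.19, 11.62 and 12.06 in controls and 11.81, 12.25 and 12.16 in soy. Control 1 was low, control 3 lay among the soy arrays, and the change was 0.45 (SE 0.22, adjusted p = 0.505), with 0.48 and 0.39 by its other probes and 0.23 without control 1. It was 0.40 within slide 1 and 0.094 within slide 3. Gbp3, a guanylate-binding protein (NM_018734), measured 9.33, 9.41 and 9.71 in controls and 8.999, 9.05 and 9.38 in soy, a change of -0.34 (SE 0.15, adjusted p = 0.451). Only soy 3 reached the control range. Its relative Gbp2 (NM_010260) measured 9.79, 9.53 and 9.21 in controls and 9.39, 9.04 and 9.37 in soy, with overlap and a change of -0.24 (SE 0.17, adjusted p = 0.647). The change of Gbp2 was -0.26 within slide 1 and 0.16 within slide 3. Iigp1, the brightest of these GTPases (NM_021792), measured 15.44, 15.54 and 15.78 in controls and 15.50, 15.76 and 15.70 in soy, a change of 0.065 (SE 0.13, adjusted p = 0.885), and Igtp was at 0.069. Both pairs of groups overlapped, and the sign for Iigp1 turned to -0.031 with the slide as a block and to -0.011 without control 1.

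In the class I pathway both heavy chains were on the higher side and the other 4 genes on the lower side, and none passed. H2-K1, a heavy chain that holds the peptide (NM_001001892), measured 16.77, 17.00 and 16.87 in control livers and 17.22, 17.08 and 17.42 in soy-fed livers. All soy arrays were higher, and the change was 0.36 (SE 0.12, adjusted p = 0.316). A second H2-K1 probe also showed no overlap, with a change of 0.45. H2-D1, the other classical heavy chain measured (NM_010380), had 16.02, 16.37 and 16.38 in controls and 16.50, 16.43 and 16.65 in soy. Soy 2 was only just above control 3, and the change was 0.27 (SE 0.13, adjusted p = 0.491), or 0.15 without control 1. Both changes were in the same direction within slide 1 (0.33 and 0.31) and within slide 3 (0.56 and 0.27). Of 10 class I genes outside the set, 9 overlapped between the diets, with changes from -0.15 for H2-Q10 to 0.16 for H2-Q4, and H2-T23 was at 0.33 without overlap. Class I heavy chains are close in sequence, and signal shared between these probes and related genes was not tested.

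For the remaining class I genes the diets overlapped. B2m, the light chain that pairs with every class I heavy chain (NM_009735), measured 17.85, 17.70 and 17.94 in controls and 17.84, 17.53 and 17.66 in soy. Soy 1 was at the level of control 1, the change was -0.15 (SE 0.12, adjusted p = 0.679), and it was 0.065 within slide 1 and -0.27 within slide 3. Tapbp, or tapasin, which loads peptide onto class I (NM_001025313), measured 13.49, 13.52 and 13.60 in controls and 13.15, 13.33 and 13.56 in soy, a change of -0.18 (SE 0.12, adjusted p = 0.629), or -0.096 by a second probe. Soy 3 again lay among the controls. The peptide transporters Tap1 and Tap2 were at -0.00088 and -0.12 with overlapping groups.

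Of the 4 class II genes, 3 were lower in soy and the median change was -0.38. Cd74, the invariant chain that guides class II molecules to the endosome (NM_001042605), measured 12.76, 12.57 and 12.69 in controls and 12.28, 12.45 and 12.24 in soy. All soy arrays were below all controls, with a change of -0.35 (SE 0.11, adjusted p = 0.265), -0.39 within slide 1 and -0.44 within slide 3. H2-Ab1, the beta chain of I-A (NM_207105), measured 13.08, 12.61 and 12.44 in controls and 12.32, 12.51 and 12.06 in soy. Soy 2 lay above control 3, so these groups overlapped, and the change was -0.41 (SE 0.19, adjusted p = 0.464), or -0.23 without control 1. A second H2-Ab1 probe gave -0.51 without overlap (adjusted p = 0.227), and the remaining ones gave -0.27 and -0.14.

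H2-Eb1, the beta chain of I-E (NM_010382), measured 13.02, 12.57 and 12.18 in controls and 12.07, 12.52 and 11.99 in soy, with overlap and a change of -0.40 (SE 0.23, adjusted p = 0.562). It was -0.19 without control 1 and -0.61 without control 3. H2-Aa, the alpha chain that pairs with H2-Ab1 (NM_010378), measured 9.26, 9.82 and 9.24 in controls and 9.71, 10.03 and 9.65 in soy. Control 2 reached the soy values, and the change was 0.36 (SE 0.18, adjusted p = 0.518), opposite in sign to that of its partner on both slides (0.17 and 0.41, against -0.53 and -0.38 for H2-Ab1). After centring, the class II genes had medians of 0.42, 0.15 and -0.13 on control 1 to 3 and -0.20, 0.065 and -0.33 on soy 1 to 3. Control 3 was the lowest control for this group, although it was the highest array for the antiviral effectors. Control 1, the highest array for class II, was also highest for the stellate cell markers (0.40) and the dendritic cell markers (0.15). It was the lowest array for the Kupffer cell and macrophage markers (-0.52), which were highest on soy 3 (0.36). The B cell markers were at -0.051 on control 1 and were also highest on soy 3 (0.13). The part of these marker levels in the class II values was not tested.

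**Figure D4:**
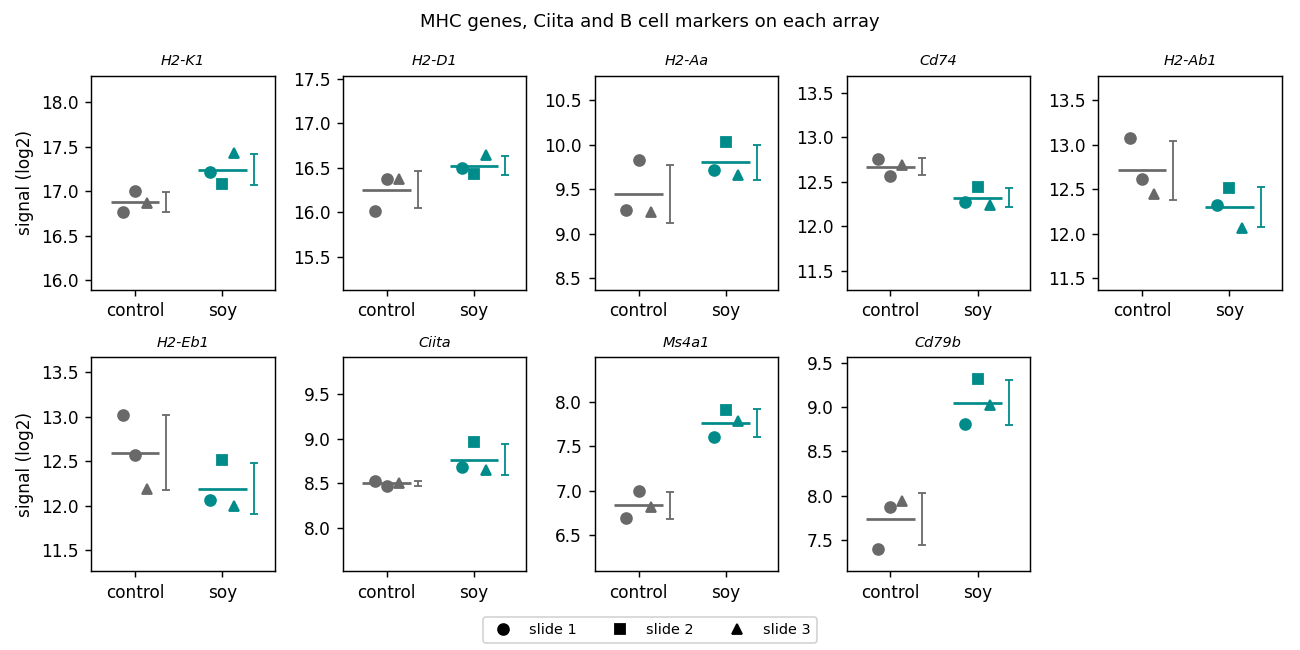
Log2 signal of 6 MHC genes, Ciita and the 2 of 5 B cell markers that passed, Ms4a1 and Cd79b, on each array (points, shaped by slide) with the mean (line) and standard deviation (bar) of the 3 control and the 3 soy mice, on axes of equal span. Ms4a1 and Cd79b separate by diet with a wide gap, while H2-K1, H2-D1, Ciita and Cd74 separate narrowly and H2-Aa, H2-Ab1 and H2-Eb1 overlap.

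The markers of the cells that carry class II molecules were read beside these values. Among 5 B cell markers, 4 were higher in soy with a median change of 0.026, and Cd79b and Ms4a1 passed. Cd79b, a signalling chain of the B cell receptor, measured 7.41, 7.88 and 7.94 in controls and 8.81, 9.31 and 9.03 in soy, a change of 1.31 (SE 0.18, adjusted p = 0.0427). Ms4a1, which encodes CD20, measured 6.69, 7.0003 and 6.82 in controls and 7.60, 7.91 and 7.79 in soy, a change of 0.93 (SE 0.13, adjusted p = 0.0394). For this pair every soy array lay above every control array, at dim signals, and Ms4a1 was well above background on 2 of the 3 control arrays. The partner chain Cd79a was at 0.016, with means of 6.73 in controls and 6.75 in soy. It was well above background on 2 control arrays and on no soy array. Pax5, the B cell identity factor, was at -0.090, and Cr2, the brightest of the list, was at 0.026. The summed linear signal of the list was 959, 1025 and 984 in the control mice and 1271, 1535 and 1401 in the soy-fed mice, a gap that lay in Cd79b and Ms4a1, the other 3 markers being near 0 in change and overlapping. With the slide as a block both calls were lost, at changes of 1.13 for Cd79b (adjusted p = 0.161) and 0.85 for Ms4a1 (adjusted p = 0.184). In that fit soy 2, alone on its slide, takes no part in the change. With any of the 6 arrays left out neither gene passed, the adjusted p lying between 0.0617 and 0.144 and the changes between 1.14 and 1.43 for Cd79b and between 0.86 and 1.01 for Ms4a1. With the processed signal the change of Ms4a1 was 2.50.

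No macrophage or dendritic cell marker passed. Of 12 Kupffer cell and macrophage markers, 11 were higher in soy with a median change of 0.11 and overlapping groups for all 12. Their brightest gene, Cd5l, measured 13.34, 14.10 and 14.08 in controls and 13.97, 14.29 and 14.61 in soy (change 0.45, SE 0.24, adjusted p = 0.538, and 0.20 to 0.61 with an array left out). The summed signal of the list was 47441, 66274 and 80194 in the control mice and 59326, 71371 and 86803 in the soy-fed mice, lowest on control 1. Of 8 dendritic cell markers 5 were lower, with a median of -0.078. Zbtb46, a factor of conventional dendritic cells, is named after its values were seen. It was the only one without overlap, on the lower side (12.5%, beside 13.3% of all well-measured genes). Its change was -0.35 (SE 0.099, adjusted p = 0.224), with -0.35 within slide 1 and -0.50 within slide 3. Its second probe, near background, gave -0.064. Xcr1 had no array well above background, and Siglech, the brightest, was at 0.072. The summed signal of the list was 94886, 97328 and 94370 in controls and 98766, 111588 and 91397 in soy, and it came mostly from this probe of Siglech (16.53 on average in controls on the log2 scale). A second Siglech probe was near background on all 6 arrays (6.40). The part of these cells in the class II values was not tested. The hepatocyte list, which checks the tissue, was well above background for all 8 genes, with a median change of -0.11. Serpina1a, its brightest gene, was at -0.0043, a sign that turned with other normalizations, and 7 of its 8 genes were lower in soy. Cps1, named after its values were seen, was the only one without overlap (12.5%, beside 13.3% of all well-measured genes). It was at -0.47 (SE 0.12, adjusted p = 0.178). Its change was -0.28 within slide 1 and -0.48 within slide 3.

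The interferon genes gave few readable signals. Of 16 ligand genes found on the array, the signal of 8 was well above background in all mice of 1 diet or both, whereas Ifna4, Ifnb1, Ifne and Ifng were not well above background on any array, and none passed. Their changes had a median of 0.013, with 8 higher and 8 lower. Ifna1 measured 7.54, 7.39 and 7.42 in controls and 7.09, 7.16 and 7.19 in soy, a change of -0.30 (adjusted p = 0.284) without overlap, or -0.12 (adjusted p = 0.516) with a 75th-percentile shift in place of quantile normalization. With the processed signal it was -0.44 (adjusted p = 0.0523). Ifna2 measured 6.97, 6.89 and 6.94 in controls and 6.48, 6.84 and 6.73 in soy, where no array held it well above background. Its change was -0.25 (adjusted p = 0.481), -0.016 with that shift and -0.58 with the processed signal. With soy near background these are not exact differences. Ifnk, an interferon of skin, had the largest change, 0.42 (adjusted p = 0.600), set by soy 3 at 8.73 while the other arrays lay from 7.58 to 7.87. Genes of the alpha interferon family are near copies of each other, and signal shared between their probes was not tested.

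The 13 receptor, kinase and STAT genes had a median change of -0.021, with 7 lower and none passing. Ifnlr1, the receptor chain for lambda interferons, stayed near background on all 6 arrays. Socs3, a feedback inhibitor of JAK kinases, had the largest change, -0.63 (SE 0.46, adjusted p = 0.656), with controls at 12.92, 13.44 and 11.57 and soy arrays at 11.62, 11.89 and 12.54. It was at -1.57 within slide 1 and 0.97 within slide 3. Stat3, which carries cytokine signals, was at -0.32 and Ifngr2, a chain of the interferon gamma receptor, at -0.28 (adjusted p = 0.479 and 0.462), the latter without overlap. Stat3 was at -0.52 within slide 1 and 0.059 within slide 3. A second Stat3 probe was lower without overlap, at -0.44 (adjusted p = 0.226).

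Of the 16 genes that sense nucleic acids or relay that signal to interferon, 12 were lower in soy, with a median of -0.18 and none passing. The groups did not overlap for 5 of them, all lower (31.2%, beside 13.3% of all well-measured genes). Tmem173, which encodes the adaptor STING of the DNA sensing route, measured 9.80, 9.71 and 9.85 in controls and 9.002, 9.16 and 9.38 in soy. Every soy array was below every control array, and the change was -0.61 (SE 0.12, adjusted p = 0.104), with -0.75 within slide 1 and -0.48 within slide 3. Irf5, a factor downstream of Toll-like receptors, measured 9.61, 10.13 and 10.48 in controls and 9.37, 9.48 and 9.29 in soy, a change of -0.69 (SE 0.21, adjusted p = 0.257) without overlap. It was at -0.50 within slide 1 and -1.19 within slide 3. Irf2, an antagonist of Irf1, was at -0.42 (adjusted p = 0.541) with overlap, at -0.13 within slide 3 and from -0.67 to -0.29 with an array left out. Mavs, the mitochondrial adaptor of the RNA sensors, was at -0.25, Mb21d1, which encodes the DNA sensor cGAS, at -0.29, and Myd88 at -0.23. These were also free of overlap and are named after their values were seen.

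Interferon-stimulated genes outside the set gave a mixed picture. Of 44 found on the array 30 were lower in soy, but the median was only -0.054 and none passed. The groups did not overlap for 4 that were lower (9.09%, beside 13.3% of all well-measured genes), Parp12, Parp14, Adar and Shisa5 (named after their values were seen), and for 1 that was higher, Tor3a (2.27%, beside 12.2%). Within slide 1 the median was -0.15 with 31 lower, and within slide 3 it was 0.11 with 16 lower. The largest change was that of Tor3a, an ATPase of the endoplasmic reticulum, with 8.36, 8.49 and 8.69 in controls and 9.20, 9.08 and 9.83 in soy, or 0.86 (SE 0.20, adjusted p = 0.156) without overlap. Ifi47, a GTPase of the Irgm1 family, was at 0.71 (SE 0.40, adjusted p = 0.556), with control 3 among the soy arrays and values from 0.42 to 1.11 with an array left out. Its lowest value among all fits was 0.30, and it was 0.24 within slide 1 and 0.39 within slide 3. Cxcl9, a chemokine for T cells, was at -0.61 (SE 0.26, adjusted p = 0.435), with -0.78 within slide 1 and 0.062 within slide 3.

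Among antigen presentation genes outside the set the sign was mostly the other, with 23 of 32 higher in soy, a median of 0.093 and none passing. The groups did not overlap for 7 that were higher (21.9%, beside the 12.2% of all well-measured genes) and for 1 that was lower (3.1%, beside 13.3%). Of the 32 genes, 30 were well measured. H2-DMb1, a chain of the molecule that loads class II peptides, measured 8.41, 9.07 and 8.27 in controls and 9.57 and 9.49 on soy 2 and soy 3, with soy 1 dropped as an outlier spot. Its change was 0.95 (SE 0.24, adjusted p = 0.205). Rfx5, which binds class I and class II promoters, measured 6.98, 6.81 and 7.22 in controls and 7.56, 7.51 and 7.54 in soy, a change of 0.54 (SE 0.12, adjusted p = 0.146). Its signal was well above background on 2 of the 3 control arrays, its second probe, which was near background, gave -0.068, and the mean of both gave 0.23. Nfyb, a subunit of NF-Y, which binds the CCAAT box, measured 10.17, 9.75 and 10.13 in controls and 10.45, 10.38 and 10.69 in soy, a change of 0.49 (SE 0.15, adjusted p = 0.258). H2-DMb1, Rfx5 and Nfyb were higher on each soy array with a value. H2-DMb2 and H2-Oa were not well above background on any array. At an unadjusted p under 0.05, limma gave 1 gene lower among the ligands, 1 lower among the receptors, kinases and STATs (Ifnlr1, which was near background), 4 lower among the sensing genes, 5 lower and 1 higher among the other interferon-stimulated genes, and 5 higher among the other antigen presentation genes. Of all well-measured genes 9.89% reached this in each direction.

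Slides held the diets unevenly, so the change was also taken within the slides that held both. The median over the 39 genes was -0.33 within slide 1 (29 lower), where soy 1 is set against control 1 and control 2, and over 38 genes it was -0.053 within slide 3 (22 lower), where soy 3 is set against control 3. Of the 38 genes with a value in both slides, 19 were lower in both (50%, beside 32.6% of all well-measured genes) and 7 were higher in both (18.4%, beside 30.2%). RNA sensors had medians of -0.42 and -0.52 and class II genes of -0.46 and -0.29. Antiviral effectors went from -0.36 to -0.076 and transcription regulators from -0.36 to 0.17. With the slide as a block in the fit the median was -0.22, and no gene passed. Slide 2 held soy 2 only, so soy 2 takes no part in the change of that fit. Slide 2 gives no within-slide value, and each such value rests on 2 or 3 arrays and has no test.

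**Figure D5:**
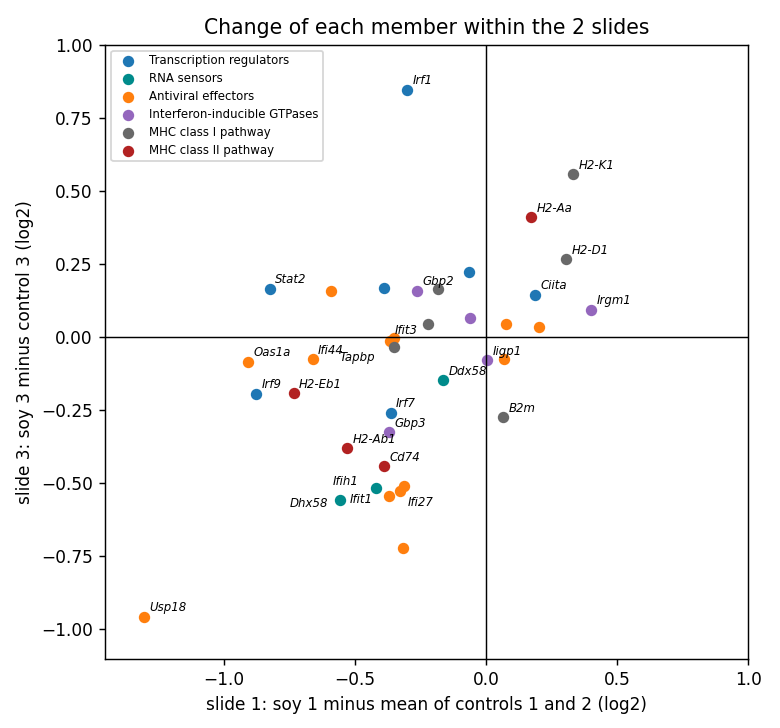
Change of each gene within slide 1 (horizontal axis, soy 1 minus the mean of control 1 and control 2, log2) against the change within slide 3 (vertical axis, soy 3 minus control 3, log2), coloured by role. Usp18 lies at the far lower left (-1.30 and -0.96), H2-K1 at the upper right (0.33 and 0.56), and Irf1 at the upper left (-0.30 and 0.85).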

How the data were processed

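Single-colour Agilent mouse arrays, 1 per liver, were scanned by the authors. Per the file headers, Feature Extraction 11.5.1.1 gave the deposited median intensity of every spot and of the background around it, not normalized, and a processed intensity. The deposited table of log2 values holds the same arrays after a normalization that gives them shared quantiles, and differs from the values used here by at most 0.071. Here the median intensities were corrected by normexp (offset 50), quantile normalized and log2 transformed. Control spots and outlier spots were removed, and replicate spots of 1 probe were averaged. Soy was tested against control over 56605 probes in limma 3.58.1 (R 4.3.3, lmFit and eBayes, Benjamini-Hochberg), after tests on simulated data, and tables were put together in Python 3.11.15. The gene set and all lists, tests and alternatives were chosen with earlier results of these data known. The array carries probes for 121 of 130 genes in 5 pathway lists and 75 of 76 markers in 10 cell lists, by RefSeq accession (table of GRCm38.p6), and some genes of these lists are not reported here. Sequences are from RefSeq, and the array was annotated on another build. Among genes with signal well above background in every mouse of at least 1 diet, the 3 largest changes and the brightest gene of each role group are given in full, in each pathway list the 3 largest changes and any gene that passed, and in each cell list the brightest gene, any that passed and those not above background.

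As alternatives the background was left in, the offset was set to 16, the processed signal was used, and a 75th-percentile shift or cyclic loess replaced the quantiles. Further ones kept only probes well above background, kept outlier spots, fitted eBayes with trend and robust options, averaged all probes of a gene, blocked on replicate number or on slide, started from the deposited log2 values, dropped the fold threshold, took changes within slides, and left out each array in turn. With the slide as a block, soy 2 is alone on slide 2 and takes no part in the change. The labels name separate mice as replicates.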

Additional observations from a re-analysis of the deposited data

How the results depend on the processing

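No member of the set passed under any alternative except the processed signal, where 1 did, Usp18 (-1.26, adjusted p = 0.0206), while 13138 of all probes passed. The count over all probes was 198, and 77 with an offset of 16, 299 with a 75th-percentile shift, 497 among probes well above background, 25 with the slide as a block, and 25 to 203 with an array left out (25 without soy 2, 27 without soy 3, 50 without soy 1, 71 without control 2 and 102 without control 1). With an array left out the change moved by over 1.5 times for 16 of the 24 genes of the set given on every array, among them Ciita (0.17 to 0.32), Ddx58 (-0.29 to -0.053), Gbp2 (-0.39 to -0.10), Gbp3 (-0.46 to -0.22), B2m (-0.24 to -0.078), Tapbp (-0.29 to -0.085) and H2-Aa (0.24 to 0.55). Among pathway genes and cell markers it did so for Ifna2 (-0.33 to -0.15), Ifnk (0.095 to 0.64), Socs3 (-1.17 to -0.23), Stat3 (-0.48 to -0.23), Irf2 (-0.67 to -0.29), Ifi47 (0.42 to 1.11), Cxcl9 (-0.85 to -0.32), Cd5l (0.20 to 0.61), Clec4g (0.11 to 0.25), Elane (-0.38 to -0.11), Tyrobp (-0.31 to -0.053), Dcn (-0.14 to -0.045) and Spp1 (0.020 to 0.36), and for Serpina1a, Siglech and Cr2. The median change of -0.24 was -0.053 within slide 3 and from -0.29 to -0.16 with an array left out. Of 432 values of those 24 genes, 3 changed sign in other fits, namely Ddx58 by the mean of its probes (0.084) and Iigp1 with the slide as a block (-0.031) and with an array left out (-0.011 to 0.16). Of 48 values within slides 4 did, B2m in slide 1 (0.065) and Stat2 (0.17), Gbp2 (0.16) and Iigp1 (-0.078) in slide 3. Among cell markers, Serpina1a turned to 0.099 with the processed signal, 0.089 with the percentile shift and 0.13 with cyclic loess (-0.038 to 0.019 with an array left out), Cr2 to -0.018 with the slide as a block (-0.067 to 0.11), and Siglech ranged from -0.0063 to 0.14. With the processed signal Tmem173 (-0.63), Tor3a (1.07) and Rfx5 (1.30) also passed. Cd79b and Ms4a1 lost the call with an offset of 16, at changes of 1.46 and 1.197, and with the slide as a block. The causes were not tested.

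The replicate numbers were not taken to pair the samples. Deviations of same-numbered arrays correlated at 0.086, -0.062 and 0.080, and those of differently numbered control and soy arrays from -0.18 to 0.087. Control 1 and soy 1 shared a slide, as did control 3 and soy 3, so number and slide cannot be told apart there. With 3 mice per group these values cannot exclude a pairing. With the replicate number as a block 78 probes and no member passed, 12 members lower and 3 higher in soy had an unadjusted p under 0.05 (9.65% and 10.1% of all well-measured genes), the median was -0.24, and Ms4a1 lost the call (adjusted p = 0.0603).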

Other observations

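Markers of the other cell types of the liver gave no gene that passed. Of 10 T and NK cell markers, 8 were higher in soy with a median change of 0.13, and Cd8a and Ncr1 were not well above background on any array. Cd4, the brightest of them by signal, was at -0.50 without overlap (adjusted p = 0.307), with -0.12 within slide 1 and -0.98 within slide 3, while its second probe gave 0.18. It was the only marker lower without overlap (10%, beside 13.3% of all well-measured genes). Higher without overlap were 2 (20%, beside 12.2%), Cd3d at 0.35 and Gzma at 0.26, named after their values were seen. Of 6 pan-leukocyte markers 5 were higher, with a median of 0.25, and the brightest, Tyrobp, was at -0.21. Ptprc, named after its values were seen, was the only one without overlap (16.7%, beside 12.2% of all well-measured genes). It was at 0.28 (adjusted p = 0.406). Of 7 neutrophil markers 4 were higher (median 0.18), with the brightest, Elane, at -0.24 (0.073 within slide 1 and -0.74 within slide 3) and Ngp not well above background on any array. Lower without overlap were 2 (28.6%, beside 13.3% of all well-measured genes), Camp at -0.54 and Mpo at -0.16, the latter not well above background in soy. Retnlg was higher without overlap, at 0.49 (14.3%, beside 12.2%). Camp, Mpo and Retnlg are named after their values were seen. Endothelial markers were split, with 4 higher and 4 lower (median 0.019). Clec4g, the brightest, was at 0.20 and the only one without overlap (12.5%, beside 12.2% of all well-measured genes). Of 6 stellate cell markers 5 were lower (median -0.16), with Dcn, the brightest, at -0.083. Col1a1, a chain of type I collagen named after its values were seen, had the largest change of that list, -0.997 (SE 0.34, adjusted p = 0.318). By brightest probes it was the only one of the list without overlap (16.7%, beside 13.3% of all well-measured genes). Its change was -1.38 within slide 1 and -0.46 within slide 3, and -0.86 with overlap by its second probe. Control 1 was the highest of the controls for Col1a1, and without it the change was -0.61 (limma, adjusted p = 0.456). Of 5 cholangiocyte markers 3 were higher (median 0.12), with Spp1, the brightest, at 0.15 and Epcam not well above background on any array. Krt7, named after its values were seen, was lower without overlap, at -0.14 (20%, beside 13.3% of all well-measured genes). No soy array held it well above background.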
